A study of Mus musculus with 8 samples.

Results

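The genes of Notch signalling described here are the receptors Notch1, Notch2 and Notch3, the ligands Dll1 and Jag1, the transcription factor Rbpj, and the target genes Hes1, Hes5, Hey1 and Hey2. They were taken from the raw count table by an exact match of the gene symbol, which found all 10 among 41128 listed genes, and all 10 passed the filter on low counts. The list was chosen by pathway role with log2 fold changes and p-values of the same comparison already in view, so the members' differences between the groups are given as a description and not as an independent test. RNA-seq was made from the corpus callosum, the large white matter tract between the hemispheres, of PLP-150Q mice. In this Huntington's disease model a huntingtin fragment with an expanded polyglutamine tract is made in oligodendrocytes. The LAQ group (4 libraries, numbered 5 to 8) received LAQ, read here as the oral immunomodulator laquinimod, at 5 mg/kg from an age of 3 months. The control group (4 libraries, numbered 1 to 4) received purified water. Treatment lasted 2 months and the mice were 5 months old at collection. Both groups carry the transgene and no group without it was analysed here, so the values say nothing of the effect of the transgene. Nothing in the labels states that each library came from its own mouse, and the p-values measure the spread between these libraries only, which may be technical.

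Notch receptors sit in the cell membrane and are bound by Delta-like and Jagged ligands on a neighbouring cell. Binding leads to cleavage of the receptor by ADAM proteases and then by gamma-secretase, and the freed intracellular domain enters the nucleus, where it joins RBPJ and Mastermind coactivators at target promoters. The best known targets are the Hes and Hey genes, which encode bHLH repressors. In the brain the pathway holds back neuronal and oligodendrocyte differentiation, maintains neural stem cells and astrocytes, and shapes blood vessels through Notch1, Notch4 and Dll4 in endothelium and Notch3 in mural cells.

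The LAQ libraries held 9634156 to 12021429 counted reads and the control libraries 8790749 to 11972197. LAQ 7 stood apart from the other libraries of its group, with chi-square values per degree of freedom between 15 and 23.9 against each of them, beside 7.44 to 8.43 among LAQ 5, 6 and 8 and 4.07 to 5.75 among the control libraries. Log2 fold changes without LAQ 7 are therefore drawn for the 10 members and 12 other pathway genes. The text gives values without LAQ 7 for some of these genes only, and values left out may differ too. The oligodendrocyte markers of the labelled tissue were abundant, with 12960 to 16948 CPM (read counts relative to the TMM-scaled library size) summed over 12 genes in LAQ and 12211 to 14006 CPM in control. Cortical excitatory neuron markers were present too, at 2419 to 3842 CPM summed over 12 genes in LAQ and 3292 to 3808 CPM in control. The 2419 CPM was that of LAQ 7, beside 3545, 3842 and 3313 CPM in LAQ 5, 6 and 8. LAQ 7 also had the highest sums of oligodendrocyte markers, 16948 CPM, and of inhibitory neuron markers, 1251 CPM, among all libraries. Values without LAQ 7 thus leave out a library with other marker levels, and the part of these levels was not tested. Of 15771 genes tested with edgeR's quasi-likelihood method, 0 passed an adjusted p of 0.05, while 1750 (11.1%) had an unadjusted p under 0.05. On the same counts limma voom called 0 genes and DESeq2 called 134 (0.85%).

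Promoter windows, 250 bases before to 50 bases after the transcription start, were taken from the RefSeq table for GRCm38.p6, which gave windows for 8 of the 10 members, all but Hes1 and Hey1. The windows of the target genes Hes5 and Hey2 are shown because these genes differ in their values below, while both windows hold the same RBPJ-binding motif 2 times. Capitals mark the motif GTGGGAA on either strand, and each window is written 5′ to 3′ on the strand of its gene.
Hes5, chr4:154960673-154960972, plus strand: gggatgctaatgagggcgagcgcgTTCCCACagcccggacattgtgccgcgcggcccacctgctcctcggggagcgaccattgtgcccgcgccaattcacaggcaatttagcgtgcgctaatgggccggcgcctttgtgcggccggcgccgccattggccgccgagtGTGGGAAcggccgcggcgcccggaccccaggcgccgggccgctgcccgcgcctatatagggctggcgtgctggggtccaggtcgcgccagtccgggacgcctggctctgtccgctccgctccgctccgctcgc
Hey2, chr10:30842734-30843033, minus strand: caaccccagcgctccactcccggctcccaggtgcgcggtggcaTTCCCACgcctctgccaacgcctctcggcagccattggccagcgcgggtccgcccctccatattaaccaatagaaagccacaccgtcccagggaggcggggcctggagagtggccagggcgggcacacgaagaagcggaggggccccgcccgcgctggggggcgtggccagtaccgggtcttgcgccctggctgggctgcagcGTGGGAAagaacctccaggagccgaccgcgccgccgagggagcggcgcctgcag
In the Hes5 window the motif starts 226 bases before the start site on the opposite strand and 83 bases before it on the gene's own strand. In the Hey2 window it starts 207 bases before the start site on the opposite strand and 4 bases before it on the gene's own strand. The windows of Dll1, Jag1, Notch1, Notch2, Notch3 and Rbpj held no GTGGGAA. Of 32851 windows in the table, 2097 (6.38%) held the motif at least once and 84 (0.256%) at least 2 times. The shorter core TGGGAA, which lies within the longer motif, was found in 25.6% of all windows. A match is a stretch of letters and not a measured binding site.

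On the scale of CPM per kilobase of annotated exon, which allows levels of different genes to be set side by side, the targets Hes5 and Hey1 stood above the other members. Hey1 had 15.6 ± 0.75 CPM per kb in LAQ and 14.9 ± 1.03 CPM per kb in control (SD, n = 4 each). Hes5 had 10.4 ± 1.94 CPM per kb in LAQ and 16.6 ± 2.25 CPM per kb in control. In LAQ the range of Hes5 lay wholly below that of Hey1, whereas in control the ranges of the pair overlapped. Hes1 came next in both groups, at 3.48 ± 1.27 CPM per kb in LAQ and 4.92 ± 0.69 CPM per kb in control, where its range lay above those of all lower members. Below it, Dll1, Notch1, Notch3, Jag1 and Notch2 followed in LAQ with each range overlapping the next, between 3.03 CPM per kb for Dll1 and 1.61 for Notch2. In control their order was Notch1, Notch3, Dll1, Jag1 and Notch2, between 3.06 and 1.26 CPM per kb, and the range of Jag1 there did not reach that of Notch2. Hey2, whose range overlapped that of Notch2, and then Rbpj, whose range lay apart, were lowest in both groups, with Rbpj at 0.58 ± 0.09 CPM per kb in LAQ and 0.55 ± 0.03 CPM per kb in control. The exon length counts all annotated transcripts, so a gene with long rare isoforms is placed too low.

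**Figure D1:**
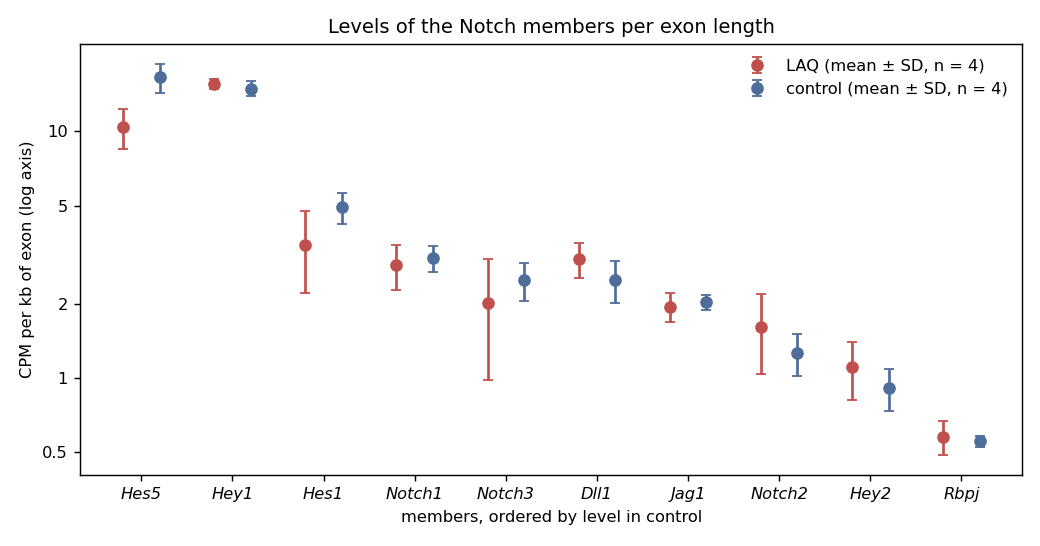
Mean level of each member in CPM per kilobase of exon on a log axis, for the LAQ and the control libraries, with bars of 1 SD over 4 libraries. Hes5 and Hey1 stand highest in both groups, and Hes5 averages 10.4 in LAQ against 16.6 in control.

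Hes5 (ENSMUSG00000048001.7, chr4:154960923-154962371 in GRCm38, protein-coding) encodes a bHLH repressor of neural progenitors and astroglia. It had 14.2, 10.5, 15.6 and 16.5 CPM in LAQ 5, 6, 7 and 8, against 26.2, 23.7, 19.0 and 21.6 CPM in control 1, 2, 3 and 4. All 4 LAQ libraries lay below all 4 control libraries, and LAQ 6 was the lowest of the 8. The means were 14.2 ± 2.65 CPM in LAQ and 22.6 ± 3.06 CPM in control (SD, n = 4 each), from 117 to 190 reads in LAQ and 166 to 274 in control, and the log2 fold change was -0.67 ± 0.15 (SE). Hes5 was the single member of 10 whose groups did not overlap, and 3.61% of all genes tested were lower without overlap. It ranked 58th of 15771 by p, but its edgeR adjusted p over all genes was 0.181. DESeq2 gave an adjusted p of 0.016, and edgeR without LAQ 7 gave 0.0388 at a log2 fold change of -0.72, in a fit that called 2.13% of all genes. Over the libraries left out in turn the log2 fold change ran between -0.75 and -0.55.

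The exons of Hes5 overlap those of Gm20421, a processed transcript annotated on the opposite strand, over 433 bases, and the strand setting of the counting was not given in the sources used here. The reads of the pair may therefore have been divided, dropped or counted for the wrong gene. Gm20421 had 7.62, 5.13, 9.72 and 8.53 CPM in LAQ 5, 6, 7 and 8, against 15.4, 13.0, 9.84 and 11.0 CPM in control 1, 2, 3 and 4. Its LAQ libraries too lay below its control libraries, though LAQ 7 and control 3 nearly met. For Gm20421 edgeR gave a log2 fold change of -0.67 ± 0.20 (SE) and an adjusted p of 0.278. Whether this is a separate transcript or reads of Hes5 cannot be told apart in these counts.

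Hes1 (chr16:30064384-30067796, protein-coding), the other Hes repressor of the list and a classical direct target of the receptors, had 10.5, 5.04, 5.11 and 7.69 CPM in LAQ 5, 6, 7 and 8. In control 1, 2, 3 and 4 it had 11.3, 11.0, 9.50 and 8.28 CPM. LAQ 6, 7 and 8 lay below all control libraries, and LAQ 5 lay among them. The means were 7.08 ± 2.58 CPM in LAQ and 10.02 ± 1.40 CPM in control (SD, n = 4 each), and edgeR placed the log2 fold change at -0.50 ± 0.23 (SE) and the adjusted p at 0.450. Hes1 rested on 56 to 110 reads in LAQ and 83 to 118 in control, and its log2 fold change stood at -0.37 without LAQ 7 and -0.76 without LAQ 5.

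Hey1 and Hey2 encode related repressors that act in vessels, heart and glia. Hey1 (chr3:8663359-8667256) had 48.3, 51.7, 54.0 and 50.02 CPM in LAQ 5, 6, 7 and 8, against 52.0, 49.4, 49.4 and 44.0 CPM in control 1, 2, 3 and 4. The groups overlapped, and the coefficient of variation of Hey1 was 4.80% in LAQ, the smallest of the 10 members there, and 6.88% in control, where that of Rbpj was smaller at 5.40%. The edgeR log2 fold change was 0.07 ± 0.08 (SE) and the adjusted p 0.787. Hey2 (chr10:30832359-30842801) had 4.38, 3.60, 5.77 and 6.55 CPM in LAQ 5, 6, 7 and 8, against 3.54, 3.45, 4.81 and 4.97 CPM in control 1, 2, 3 and 4. LAQ 7 and 8 lay above the control libraries and LAQ 5 and 6 among them. Hey2 was counted with 40 to 70 reads in LAQ and 31 to 60 in control, which limits its precision, and edgeR gave it a log2 fold change of 0.27 ± 0.23 (SE) and an adjusted p of 0.710. Of the 4 targets, Hes5 and Hes1 thus had negative log2 fold changes and Hey1 and Hey2 positive ones, and the difference between the pairs was not tested.

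**Figure D2:**
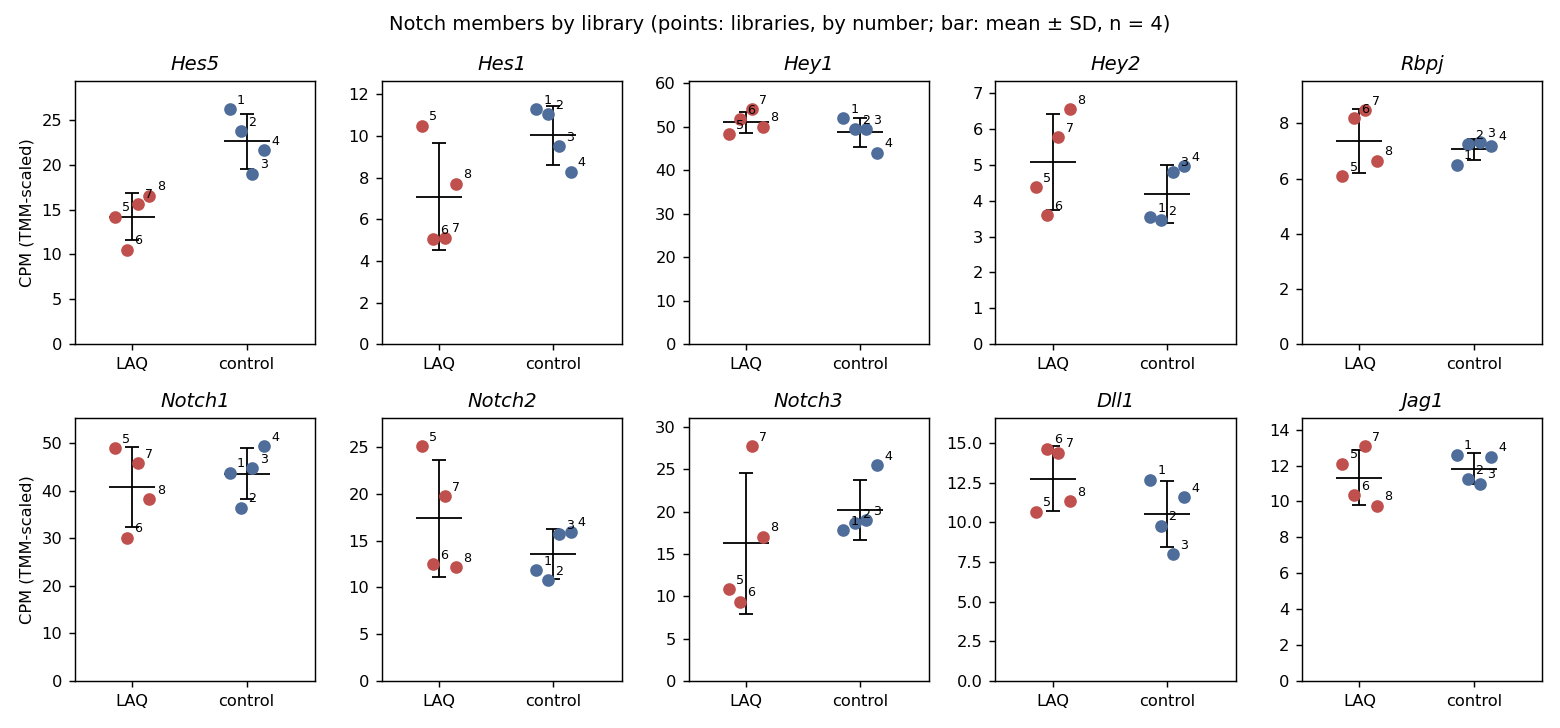
CPM of each member in the 4 LAQ libraries (left) and the 4 control libraries (right), with library numbers, the mean and 1 SD, on axes that start at 0. Hes5 is the member whose groups do not overlap, and Notch3 runs from 9.36 to 27.8 CPM within LAQ.

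Hes5 is known from astrocytes, oligodendrocyte precursors and neural progenitors, so the markers of these cells are set beside it. In bulk tissue, fewer cells of a type and less RNA per cell cannot be told apart. An edgeR unadjusted p under 0.05 was found for 3 of 12 astrocyte markers (25%), beside 11.1% of all genes tested. Of the 12, 9 had a negative log2 fold change, with a median over the list of -0.14 against -0.001 over all genes tested. Atp1b2, a sodium pump subunit, stood at -0.22 ± 0.07 (SE), and the glutamate transporter gene Slc1a2 at -0.16 ± 0.07. The other 3 were positive, namely the filament gene Gfap at 0.28 ± 0.15 (SE), the water channel gene Aqp4 at 0.09 ± 0.10 and Sox9 at 0.08 ± 0.07, and these were named after their values were seen. Their summed level was 5655 to 6326 CPM in LAQ and 5927 to 6507 CPM in control, and none of the defining markers Aqp4, Aldh1l1 and Gja1 was at 0. Per 1000 CPM of summed astrocyte markers, a scale chosen after the values were seen, Hes5 had 2.45, 1.66, 2.58 and 2.92 CPM in LAQ 5, 6, 7 and 8. On that scale it had 4.23, 4.00, 2.92 and 3.43 CPM in control 1, 2, 3 and 4. LAQ 8, at 2.924, lay just above control 3, at 2.919, so that the groups overlapped by a narrow margin.

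Of 8 measured oligodendrocyte precursor markers 5 had a negative log2 fold change, with a median of -0.09 and a summed level of 878 to 1018 CPM in LAQ and 951 to 1104 CPM in control. Cspg5, a proteoglycan, stood at -0.19 ± 0.08 (SE) and C1ql1, a secreted C1q-like protein, at 0.24 ± 0.12. A scale per 1000 CPM of these markers was likewise chosen after the values were seen. On it Hes5 had 10.6 to 18.8 CPM in LAQ and 20.0 to 24.0 CPM in control, without overlap. The sum rests most on Cspg5 and Olig1, at means of 355 and 276 CPM in LAQ, beside 53.9 CPM for Pdgfra. In LAQ 8 Hes5 had 16.5 CPM beside 40.4 CPM of Pdgfra, and in control 1 it had 26.2 CPM beside 73.0 CPM. Relative to the defining marker Pdgfra alone, LAQ 8 thus lay above control 1 and the groups overlapped. The lack of overlap therefore belongs to the summed scale only. Of 10 progenitor and neuroblast markers 8 stood above 0 on the log2 scale, at a median of 0.06, led by the topoisomerase gene Top2a at 0.92 ± 0.33 (SE) and Igfbpl1 at 0.98 ± 0.35, and they summed to 93.0 to 125 CPM in LAQ and 92.2 to 111 CPM in control. No defining marker of these 2 lists was at 0 in any library. The part of these cell types in the Hes5 values was not tested further.

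Among the receptors, Notch1 and Notch2 are made by glia, progenitors and endothelium, and Notch3 by the mural cells of vessels. Notch1 (chr2:26457903-26516663) had 48.9, 30.1, 45.8 and 38.2 CPM in LAQ 5, 6, 7 and 8, against 43.8, 36.4, 44.7 and 49.4 CPM in control 1, 2, 3 and 4. The groups overlapped, with a log2 fold change of -0.10 ± 0.14 (SE) and an edgeR adjusted p of 0.842. Notch2 (chr3:98013527-98150361) had 25.1, 12.5, 19.8 and 12.2 CPM in LAQ 5, 6, 7 and 8, against 11.8, 10.8, 15.7 and 16.0 CPM in control 1, 2, 3 and 4. LAQ 5 and 7 lay above the control libraries and LAQ 6 and 8 among them. Notch2 had the largest positive log2 fold change of the 10 members, 0.36 ± 0.23 (SE) with an edgeR adjusted p of 0.593, and it stood at 0.13 without LAQ 5.

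Notch3 (chr17:32120820-32166852) had 10.9, 9.36, 27.8 and 17.0 CPM in LAQ 5, 6, 7 and 8, against 17.8, 18.6, 19.0 and 25.5 CPM in control 1, 2, 3 and 4. LAQ 5, 6 and 8 lay below all control libraries and LAQ 7 above them, so that Notch3 spanned a 2.97-fold range within LAQ and a 1.43-fold range within control. Over all libraries edgeR gave a log2 fold change of -0.31 ± 0.28 (SE) and an adjusted p of 0.727. Without LAQ 7 it was -0.71, with an adjusted p of 0.0775, and without LAQ 6 it was -0.12. All 10 mural markers had a negative log2 fold change, with a median of -0.30, and none had an edgeR unadjusted p under 0.05, beside 11.1% of all genes tested. Vtn (vitronectin) stood at -0.31 ± 0.17 (SE) and Des (desmin) at -0.64 ± 0.30. Their summed level was 234, 179, 363 and 296 CPM in LAQ 5, 6, 7 and 8, against 279, 318, 313 and 361 CPM in control 1, 2, 3 and 4, and none of the defining markers Pdgfrb, Rgs5 and Kcnj8 was at 0. Notch3 and these markers were thus both lowest in LAQ 6 and highest in LAQ 7. A scale per 100 CPM of summed mural markers was chosen after the values were seen. On it Notch3 had 4.65, 5.22, 7.64 and 5.75 CPM in LAQ 5, 6, 7 and 8. In control 1, 2, 3 and 4 it had 6.37, 5.84, 6.07 and 7.07 CPM, with LAQ 5, 6 and 8 still below the control libraries.

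**Figure D3:**
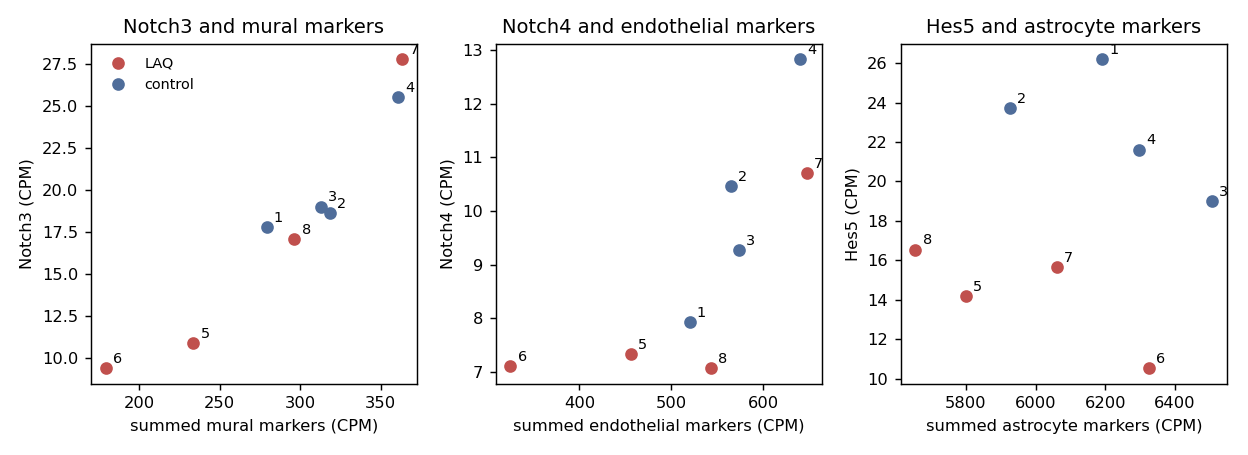
CPM of Notch3, Notch4 and Hes5 against the summed CPM of mural, endothelial and astrocyte markers, 1 point for each of the 8 libraries with its number. Notch3 and the mural markers are both lowest in LAQ 6 and highest in LAQ 7, and Hes5 lies between 10.5 and 16.5 CPM in the LAQ libraries and between 19.0 and 26.2 CPM in the control libraries.

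Of the ligands, Dll1 marks differentiating progenitors and Jag1 is made by vessels and glia. Dll1 (chr17:15367354-15376872) had 10.7, 14.7, 14.4 and 11.3 CPM in LAQ 5, 6, 7 and 8, against 12.7, 9.80, 8.01 and 11.6 CPM in control 1, 2, 3 and 4. LAQ 6 and 7 lay above the control libraries, and the difference was 0.28 ± 0.17 (SE) on the log2 scale at an edgeR adjusted p of 0.572. Jag1 (chr2:137081456-137116644) had 9.77 to 13.1 CPM in LAQ and 11.0 to 12.6 CPM in control, and the control range lay inside that of LAQ. Jag1 differed by -0.06 ± 0.13 (SE) on the log2 scale, at an edgeR adjusted p of 0.900. Rbpj (chr5:53466152-53657362), which encodes the DNA-binding partner of all the receptors, had 6.10 to 8.48 CPM in LAQ and 6.50 to 7.32 CPM in control, again with the control range inside. Rbpj differed by 0.06 ± 0.16 (SE) on that scale, at an edgeR adjusted p of 0.919.

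Over the 10 members, 5 had a positive and 5 a negative log2 fold change, where 49.7% of all genes tested had a positive one, and the median was -0.0003 against -0.001 over all genes. By edgeR, 0 members had an adjusted p under 0.05, as did 0% of all genes tested. One of the 10, Hes5, had an unadjusted p under 0.05, against 11.1% of all genes. Like Hes5, the members Notch1, Notch3 and Dll1 overlap genes annotated on the opposite strand, over 1389, 488 and 867 bases. Gm17276 opposite Notch3 had 18 to 58 reads per library. Reads in such overlaps may also have been dropped, so the counts of these members are uncertain to an unknown extent. Notch2 overlaps Gm42820 on its own strand.

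The other genes of the pathway came from a list written from their known roles, with 55 genes, of which 49 passed the filter on low counts. Dlk1, Hes2, Hes3, Hes7, Neurog2 and Atoh1 did not pass it. The list was written with earlier results of these data known, so its shares are a description and not an independent test. By edgeR 0 of the 49 had an adjusted p under 0.05, and DESeq2 and limma voom also called 0. At an unadjusted edgeR p under 0.05, 2 of the 49 (4.08%) were higher in LAQ and 7 (14.3%) lower, beside 4.77% higher and 6.33% lower over all genes tested. The median log2 fold change of the 49 was -0.07, with 18 positive and 31 negative. One gene of the list (2.04%) was higher and 5 (10.2%) lower in LAQ without overlap between the groups, beside 2.78% and 3.61% of all genes.

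The classes of ligand endocytosis and receptor cleavage were picked out after their values were seen. All 4 tested ubiquitin ligases of ligand endocytosis had a negative log2 fold change, where 49.7% of all genes tested had a positive one. In 3 of them the groups did not overlap, beside 3.61% of all genes tested that were lower without overlap. Neurl1b had 36.0, 34.5, 36.9 and 35.7 CPM in LAQ 5, 6, 7 and 8, against 47.8, 46.3, 44.5 and 41.0 CPM in control 1, 2, 3 and 4. Every LAQ library lay below every control library, and the 4 LAQ values were close together. For Neurl1b edgeR gave a log2 fold change of -0.33 ± 0.08 (SE) and an adjusted p of 0.181. Without LAQ 7 these values were -0.34 and 0.0565. Mib2 averaged 136 ± 13.0 CPM in LAQ and 154 ± 7.60 CPM in control (SD, n = 4 each), and its log2 fold change was -0.19 ± 0.08 (SE). Mib1 averaged 102 ± 7.61 CPM in LAQ and 111 ± 2.97 CPM in control, and Mib1 and Neurl1a, at log2 fold changes of -0.12 ± 0.07 and -0.16 ± 0.08 (SE), are given after their values were seen. Of 9 genes of receptor cleavage 8 had a positive log2 fold change, between 0.0005 for Furin and 0.22 for the gamma-secretase subunit Aph1b. None of the 9 had an edgeR unadjusted p under 0.05, beside 11.1% of all genes tested. Aph1b and Furin were likewise chosen after their values were seen.

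Among the nuclear partners, Maml2, a Mastermind coactivator, had 19.3, 14.0, 13.2 and 16.5 CPM in LAQ 5, 6, 7 and 8, against 10.8, 8.80, 11.8 and 14.1 CPM in control 1, 2, 3 and 4. LAQ 5 and 8 lay above the control libraries. For Maml2 edgeR gave a log2 fold change of 0.46 ± 0.17 (SE) and an adjusted p of 0.357. Without LAQ 7 these values were 0.54 and 0.101. The corepressor Tle3, a Groucho relative that Hes proteins recruit, had 14.1 to 17.2 CPM in LAQ and 18.8 to 24.6 CPM in control, without overlap, at a log2 fold change of -0.42 ± 0.12 (SE) and an edgeR adjusted p of 0.249. The histone deacetylase gene Hdac1 stood at 0.27 ± 0.12 (SE). Dtx4, a Deltex ubiquitin ligase, averaged 31.1 ± 1.59 CPM in LAQ and 36.7 ± 2.86 CPM in control, at -0.23 ± 0.09. Without LAQ 7 the log2 fold changes were -0.43 for Tle3, 0.35 for Hdac1 and -0.27 for Dtx4. Their edgeR adjusted p were then 0.0938, 0.0926 and 0.134.

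The relatives of the members fell into a vessel group and a progenitor group by their known sites of expression. Heyl, another Hey gene and one made by mural cells, had 4.00, 5.04, 5.27 and 5.93 CPM in LAQ 5, 6, 7 and 8, against 7.45, 6.91, 6.52 and 7.28 CPM in control 1, 2, 3 and 4. The groups did not overlap, and LAQ 5 was the lowest library, but Heyl rested on 42 to 64 reads in LAQ and 57 to 88 in control. For Heyl edgeR gave a log2 fold change of -0.48 ± 0.17 (SE) and an adjusted p of 0.344. Dll4, the main endothelial ligand, had 3.15 to 5.53 CPM in LAQ and 5.03 to 7.78 CPM in control, at -0.58 ± 0.23 (SE) and an edgeR adjusted p of 0.385. Its counts were 35 to 58 reads in LAQ and 44 to 94 in control. The endothelial receptor Notch4 had 7.34, 7.11, 10.7 and 7.07 CPM in LAQ 5, 6, 7 and 8, against 7.93, 10.5, 9.27 and 12.8 CPM in control 1, 2, 3 and 4. As for Notch3, LAQ 7 stood above the other LAQ libraries, and the log2 fold change of Notch4 was -0.33 ± 0.19 (SE) with all libraries and -0.50 without LAQ 7. Jag2 stood at -0.22 ± 0.15 (SE) with all libraries and -0.33 without LAQ 7.

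All 12 endothelial markers had a negative log2 fold change, with a median of -0.20. An edgeR unadjusted p under 0.05 was found for 1 of them (8.33%), beside 11.1% of all genes tested. The transporters Abcb1a and Slco1a4 stood at -0.58 ± 0.24 and -0.30 ± 0.14 (SE). These markers summed to 325 to 648 CPM in LAQ and 520 to 640 CPM in control, and none of the defining markers Cldn5, Pecam1 and Flt1 was at 0. Per 100 CPM of summed endothelial markers Dll4 had 0.55 to 1.21 CPM in LAQ and 0.88 to 1.22 CPM in control, and Notch4 had 1.30 to 2.19 CPM in LAQ and 1.53 to 2.00 CPM in control. Per 100 CPM of mural markers Heyl had 1.45 to 2.81 CPM in LAQ and 2.02 to 2.67 CPM in control. On these scales, also chosen after the values were seen, the groups overlapped for all 3 genes. For Dll4 and Notch4 they overlapped in CPM as well. For Heyl the overlap came from LAQ 6, at 2.81 CPM, where the mural sum was lowest at 179 CPM. The progenitor relatives Dll3 and Hes6 had log2 fold changes of 0.15 ± 0.17 and 0.16 ± 0.13 (SE), with edgeR adjusted p of 0.792 and 0.687.

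**Figure D4:**
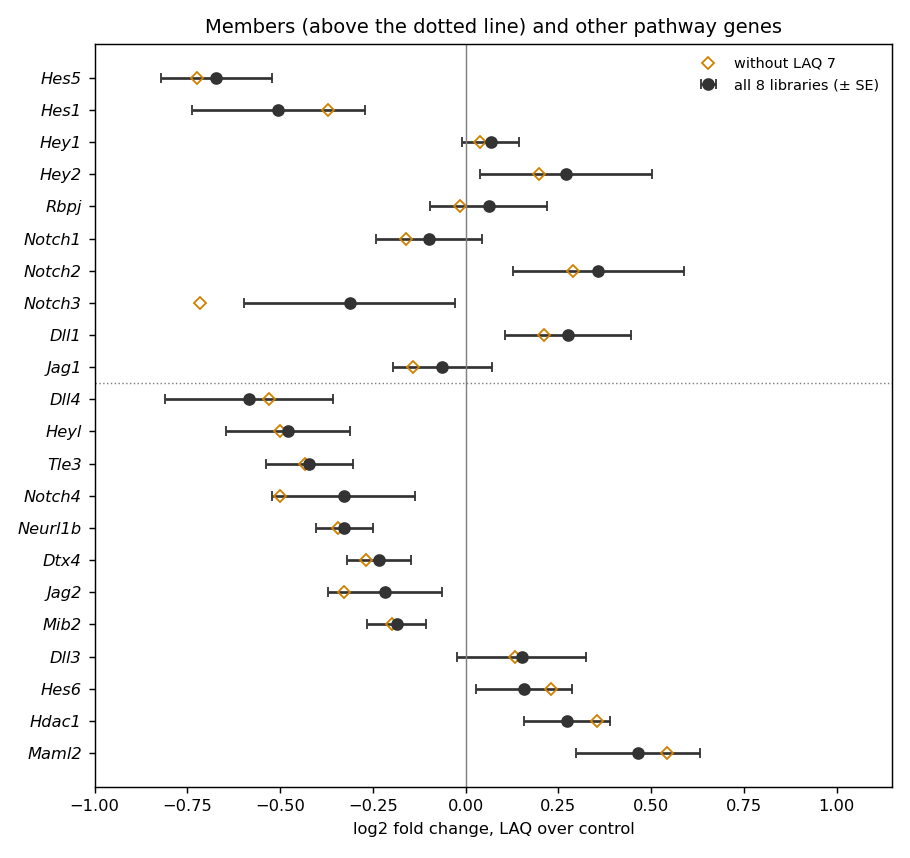
Log2 fold change of LAQ over control with 1 SE from edgeR for the 10 members and 12 other pathway genes, and the same without LAQ 7 as open diamonds. Hes5 stands at -0.67 with all libraries and -0.72 without LAQ 7, and Notch3 moves to -0.71 without LAQ 7.

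The genes most like each target in pattern were looked for among the 177 other tested genes of the fixed lists, by the root mean square difference of log2 CPM over the 8 libraries after each gene was centred on its mean. For Hes5 the nearest were Rorb, a nuclear receptor of the cortical list, at 0.22, and Heyl at 0.23, where the median gene was at 0.42. For Hes1 they were Dll4 at 0.307 and the fringe glycosyltransferase Mfng at 0.311, with a median of 0.48. Hey2 lay nearest to the ependymal marker Rarres2, at 0.16, and to the myelin gene Mobp, at 0.22, with a median of 0.37. Hey1 lay nearest to Poglut1, which glycosylates Notch receptors, at 0.05, and to the microglial receptor P2ry12, at 0.07, beside a median of 0.24. Hey1 varied so little that its distance from a gene with no variation would be 0.08, so P2ry12 is scarcely nearer than a flat profile. The same distance would be 0.40 for Hes5, 0.43 for Hes1 and 0.31 for Hey2. These distances cover 8 libraries that differ in depth and in summed marker levels, and they describe likeness only.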

How the data were processed

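The authors deposited raw read counts, 1 value for each gene symbol and library, and every column was used. A table of normalized values was not used here. The submitters' processing notes name bcl2fastq 2.17.1.14, STAR 2.5.2b, HTSeq, DESeq2 1.10.1 and the build GRCm38.p3. The annotation release, strand setting and read filters are not given in the sources used here.

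Groups came from the sample titles. Genes were kept by filterByExpr of edgeR 4.0.16 (minimum count 10, minimum total 15) and TMM-scaled, and the groups were compared by edgeR's quasi-likelihood test (two-sided, no covariate, R 4.3.3), with Benjamini-Hochberg adjustment over 15771 genes and a threshold of 0.05. Each SE is the absolute log2 fold change over the root of its F value. Log2 CPM used a prior count of 2. Alternatives were DESeq2 1.42.0, limma voom (3.58.1), other scalings and filters, omission of each library, and an adjusted p of 0.1. Steps were tested on simulated counts. Loci and exon lengths came from GENCODE M21 (GRCm38), promoters from RefSeq (GRCm38.p6), and figures were drawn with matplotlib 3.10.9.

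The members and lists were chosen with earlier results of these data known. Named were all members, the 8 other pathway genes of smallest p, 6 paralogs, and up to 2 markers per list. Read counts limit precision, most for genes with few reads. Values of some of the pathway genes are not reported here.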

Additional observations from a re-analysis of the deposited data

Results flagged for a closer look

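In 3 of the 44 groups of 4 libraries looked at, for the members and the other named pathway genes, 1 library stood far from the other three, and chance gives such a gap in about 1 in 20 groups. Notch3 in control 4 had 25.5 CPM, above the 17.8 to 19.0 CPM of the other control libraries. Rbpj in control 1 had 6.50 CPM, below the 7.20 to 7.32 CPM of the others. Notch4 in LAQ 7 had 10.7 CPM, above the 7.07 to 7.34 CPM of the other LAQ libraries. In control 4 the mural markers were also at their highest among the control libraries, with a sum of 361 CPM, and in LAQ 7 the endothelial markers at their highest among all 8, with 648 CPM. The part of these marker levels in the gaps was not tested.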

How the results depend on the processing

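The count of genes past the threshold was 0 with all libraries in edgeR. It was 25 without an expression filter and 134 in DESeq2, and it ran from 0 to 339 over the libraries left out in turn, with the 339 reached without LAQ 7. The cause of these differences was not tested. Of the members, 1 passed in DESeq2, and 0 to 1 passed over the libraries left out, the 1 being Hes5 in both cases. Its adjusted p ran from 0.016 to 0.485 over the 14 alternatives. Median of ratios or library size scaling, a filter of at least 1 CPM in 4 libraries, voom and a threshold of 0.1 left the counts of all genes, members and other pathway genes at 0. Of 308 log2 fold changes recomputed, 303 kept their direction and their side of the threshold, 2 of Hes5 passed it, and 3 changed sign. Over the libraries left out in turn, Notch1 ran from -0.195 to 0.0224, its sign changing without LAQ 6. Jag1 ran from -0.142 to 0.0025, its sign changing without LAQ 8, and Rbpj from -0.0143 to 0.145, its sign changing without LAQ 7. No paired analysis was possible because the groups share no replicate number. Low counts limit Hey2, Hes1 and Rbpj, and likewise Heyl and Dll4 among the other pathway genes.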

Other observations

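Other cell type markers were counted as a picture of what the pieces of tissue held. All 9 measured ependymal markers stood above 0 on the log2 scale, at a median of 0.64, and the smallest p-values were those of Tmem212 (0.75 ± 0.20, SE) and Foxj1, the regulator of motile cilia (0.64 ± 0.19). They summed to 65.5 to 78.0 CPM in LAQ and 44.6 to 59.3 CPM in control, without overlap. All 9 choroid plexus markers were positive too, with a median of 0.79, led by Kcne2 and the water channel gene Aqp1, but their sums of 1317 to 3712 CPM in LAQ and 395 to 2546 CPM in control overlapped. The 12 oligodendrocyte markers were all positive, with a median of 0.21, led by Tspan2 (0.35 ± 0.08) and Gjb1 (0.34 ± 0.09). Of 10 microglial markers 9 were negative, with a median of -0.10, of 8 inhibitory neuron markers 6, with a median of -0.09, and of 7 meningeal markers 5, with a median of -0.21. Of 12 cortical excitatory neuron markers 8 were negative, with a median of -0.13, with the smallest p-values for Cux2 (-0.76 ± 0.15) and Mef2c (-0.42 ± 0.10). The other 4 of that list were positive, among them Neurod6 (0.65 ± 0.37), Bcl11b (0.34 ± 0.12) and Neurod2 (0.26 ± 0.29), which were named after their values were seen. These genes parted in LAQ 7, where Bcl11b was highest of all libraries at 225 CPM. Neurod6 and Neurod2 were lowest there, at 43.7 and 31.6 CPM. None of the markers passed edgeR's adjusted threshold over all genes, while DESeq2 called Cux2 (adjusted p = 0.0016), Mef2c (0.0176) and Tspan2 (0.0180). The part of these tissue differences in the Notch values was not tested.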
